A study of Mus musculus with 2 samples.

Results

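Glycolytic enzymes are described here at 10 genes (Hk2, Gpi1, Pfkl, Aldoa, Tpi1, Gapdh, Pgam1, Eno1, Pkm and Ldha) out of the 22711 genes listed for 2 lines of mouse embryonic fibroblasts. The genes were chosen by name as glycolysis genes, with their levels and allelic shares already known, and the question put to them was which keep the same uneven share of the 2 parental alleles in both lines. All RNA came from immortal fibroblasts grown on gelatin in DMEM with NBCS, beta-mercaptoethanol and antibiotics, and both lines are hybrids of the strains C57BL/6N (B6) and PWK/PhJ (PWK). In the line called B6-Xi, labelled PWK/PhJ X C57BL/6N, the inactive X chromosome is the B6 copy, and in the line called PWK-Xi, labelled C57BL/6N X PWK/PhJ, it is the PWK copy. Each line gave 1 Smart-seq2 library, a full-length method that starts from polyadenylated RNA. Every value below therefore describes 1 library with no replicate error, no test between the lines was possible, and a difference between the lines cannot be told apart from one between these libraries.

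Glycolysis splits glucose into pyruvate in the cytosol and yields ATP and NADH. Hexokinase traps glucose in the cell, phosphofructokinase is the main committed step, and lactate dehydrogenase turns pyruvate into lactate, which returns the NAD+ that the glyceraldehyde-3-phosphate dehydrogenase step uses up. Cultured fibroblasts run this pathway at a high rate even in oxygen, and several of its genes are known targets of the transcription factors HIF-1 and Myc.

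Levels are FPKM, which scale a gene's fragments to its length and to the library. They are summed over the B6 and PWK alleles, and the B6 share is the part of that sum assigned to B6. Where a pair of values stands without a line's name, B6-Xi comes first. Genes above 0 numbered 10127 in the first line and 12907 in the second. Depth per gene is unknown. Of 15 fibroblast markers, 13 and 14 reached 1 FPKM, while Vim was listed at 0 in both lines. The same level was reached by 1 and 0 of 6 epithelial, 0 and 0 of 5 endothelial, 2 and 2 of 5 immune, 0 and 2 of 5 skeletal muscle, 1 and 2 of 4 neural and 0 and 0 of 3 male germ cell markers. Pluripotency markers went against the fibroblast label in PWK-Xi, where 3 of 4 passed 1 FPKM and their sum was 152.6 FPKM, mostly Dppa5a (134.9 FPKM) with Pou5f1 at 15.1 FPKM, while all 4 were listed at 0 in B6-Xi. Their part in any difference below was not tested.

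The order of the enzymes' levels was much the same in both lines apart from Gapdh. Ldha, the muscle-type lactate dehydrogenase subunit, was the most abundant member, with 452.3 FPKM (B6-Xi) against 339.0 FPKM (PWK-Xi). Next came Eno1, the common enolase, with 184.8 and 169.6 FPKM, and Pkm, the pyruvate kinase of muscle and proliferating cells, with 181.2 and 177.5 FPKM. Eno1 was above Pkm in B6-Xi and below it in PWK-Xi, and no replicate tells these neighbours apart. Tpi1, the triose phosphate isomerase, followed with 135.5 and 158.4 FPKM. Pgam1, the phosphoglycerate mutase, had 121.1 and 112.9 FPKM. Gpi1, the glucose-6-phosphate isomerase, had 50.2 and 58.4 FPKM. Pfkl and Hk2 were the lowest of the members above 0 in both lines. Pfkl, a phosphofructokinase subunit, had 5.82 and 8.13 FPKM. Hk2, an inducible hexokinase bound to mitochondria, had 1.86 and 3.76 FPKM. Gapdh, the glyceraldehyde-3-phosphate dehydrogenase, was listed at 0 in B6-Xi and at 48.2 FPKM in PWK-Xi, and Aldoa, the main aldolase of muscle and most cells, was listed at 0 in both lines.

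**Figure D1:**
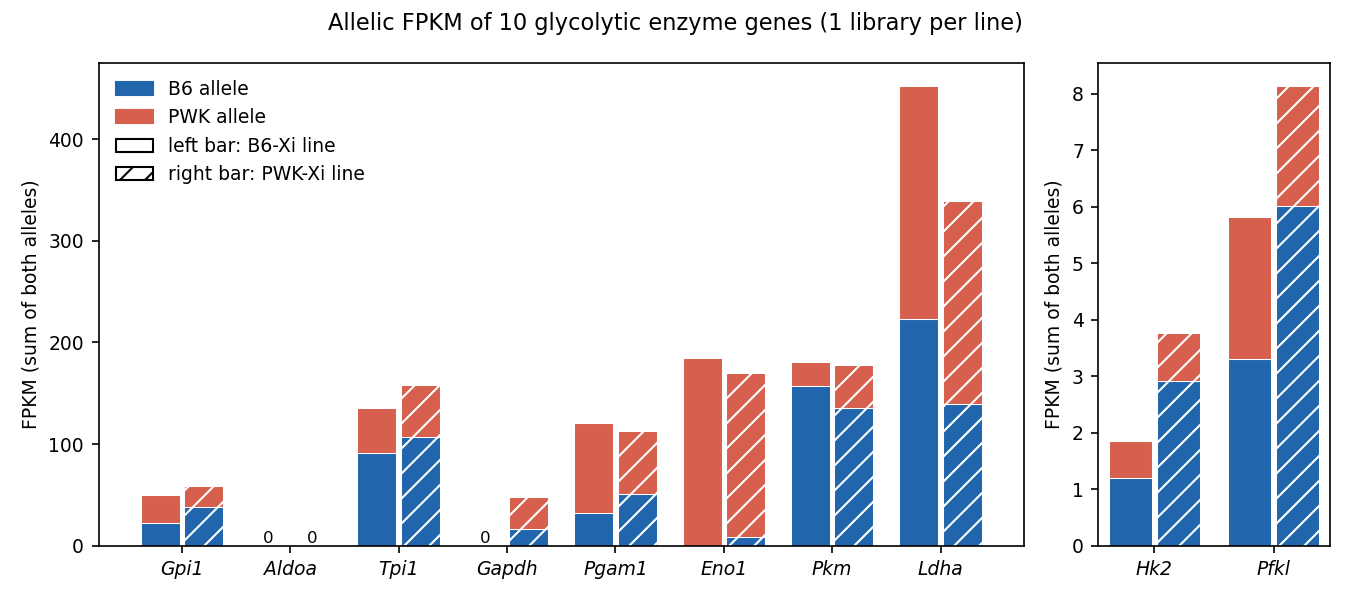
Bars show FPKM of the 10 genes, 1 library per bar, with the B6 allele in blue at the bottom and the PWK allele in red on top; for each gene the left bar is B6-Xi and the hatched right bar is PWK-Xi, and Hk2 and Pfkl have their own axis. Eno1 is almost all red and Pkm mostly blue in both lines, Aldoa is at 0 in both and Gapdh is at 0 in B6-Xi.

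Totals were compared between the lines. For the 8 members above 0 in both lines the ratio of PWK-Xi to B6-Xi ran from 0.749 (Ldha) to 2.02 (Hk2), and it was above 1 for 4 of them and below 1 for 4. A change was counted from 2-fold on the log2(FPKM + 1) scale. Among members detected in both lines and reaching 5 FPKM in either, 0 of 7 passed, against 20% of all 5241 such genes. Hk2 lay under this minimum, and its ratio of 2.02 without a pseudocount came from levels under 4 FPKM. The median log2 difference of the 7 was -0.029, and that of all 5241 genes was 0.19. Relative to all genes the members' median was thus -0.22. With Gapdh, whose difference follows from its 0 in B6-Xi, the median of 8 members was 0.09 before this shift, and 1 of 8 was past 2-fold, against 23.7% of 5490 genes (17.8% higher and 5.83% lower). Together the members made up 0.397% and 0.42% of all summed FPKM.

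**Figure D2:**
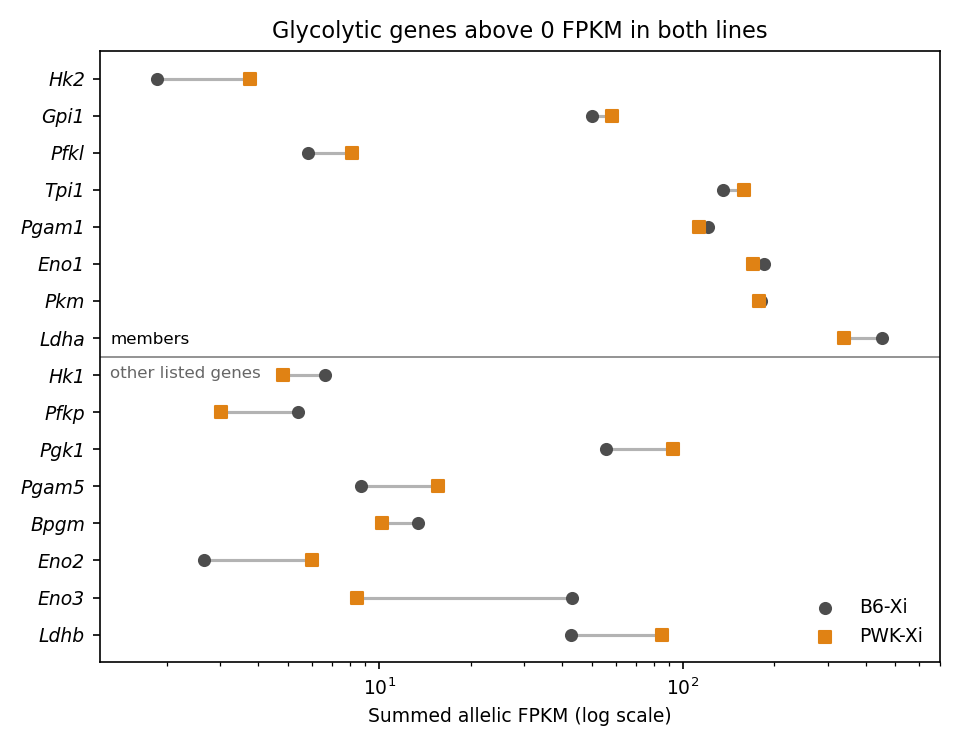
Points give the summed allelic FPKM on a log axis, 1 library per point, with B6-Xi as dark circles and PWK-Xi as orange squares, for the 8 members above 0 in both lines and for other genes of the glycolytic list. Tpi1, Pgam1, Eno1 and Pkm nearly coincide between the lines, while Eno3 is far lower and Ldhb higher in PWK-Xi.

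The uneven shares are the pattern the genes were chosen for, so they are described without a test. A share was counted as uneven where it lay at least 10 percentage points from 50% on the same side in both lines, so at 60% or more or at 40% or less in each. Of the 7 members that reached 5 FPKM in each line 3 met this: Tpi1 and Pkm toward B6, and Eno1 toward PWK. The background was 15.8% of the 3827 autosomal genes that reached this level (9.43% toward B6 and 6.32% toward PWK), and 13.6% of the 287 that reached 100 FPKM. Because the members were picked with their shares known, nothing is read from the comparison of 3 in 7 with that background. Tpi1 was the closest inside the limit, at 67.4% in both lines. Just outside were Pgam1, held back by 44.8% in PWK-Xi, and Pfkl, held back by 56.7% in B6-Xi. Hk2 had the required shares, 64.3% and 77.3%, but not the level.

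**Figure D3:**
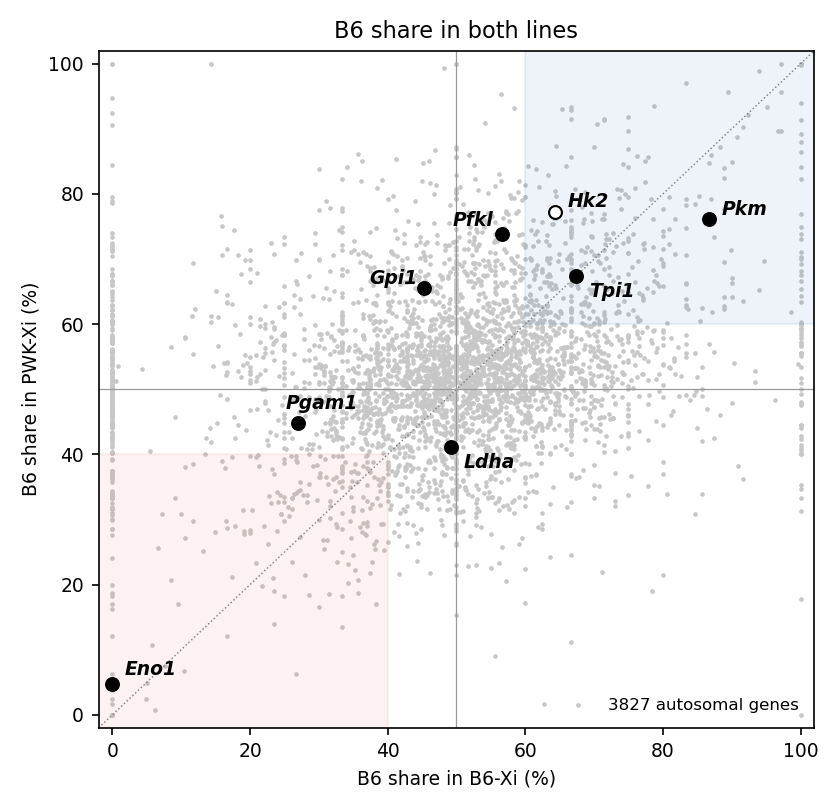
Each point is 1 gene, with its B6 share in B6-Xi on the x axis and in PWK-Xi on the y axis, both in percent; grey points are the 3827 autosomal genes that reach 5 FPKM in each line, black points are members, and the open point is Hk2, which lies under that minimum. Tpi1 and Pkm lie in the blue area (60% or more in both lines) and Eno1 in the red area (40% or less in both), with Tpi1 on the dotted line of equal shares.

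Tpi1 had the most equal pair of shares. Its B6 allele had 91.3 FPKM and its PWK allele 44.1 FPKM in B6-Xi, and these were 106.8 and 51.6 FPKM in PWK-Xi. The B6 allele was thus 2.07 times the PWK allele in each line. Both alleles were 1.17 times as high in PWK-Xi as in B6-Xi. The shares differed by 0.0067 percentage points. The median gap was 11.4 points over the 3827 genes and 7.73 points over the 287 that reached 100 FPKM in both lines. Because Tpi1 was picked with its shares known, nothing is read from the smallness of its gap. Genes around Tpi1 on chromosome 6 were closer to balance. The 20 nearest measured genes, 10 on each side, had median B6 shares of 47.7% and 54.9%. The flanking genes Atn1 and Usp5 had 42.9% and 47.7% in the first line and 53.5% and 49.7% in the second. In B6-Xi 0 of the 20 reached the share of Tpi1, and in PWK-Xi 2 did (Phb2 at 73.5% and Grcc10 at 71.1%). Tpi1 lay 19.7 points above its neighbours in B6-Xi and 12.6 points above them in PWK-Xi.

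Pkm leaned further toward B6. Its B6 and PWK alleles had 157.1 and 24.0 FPKM in B6-Xi, against 135.2 and 42.2 FPKM in PWK-Xi, which gave B6 shares of 86.7% and 76.2%. The B6 allele was 6.54 times the PWK allele in B6-Xi and 3.20 times in PWK-Xi. The share was thus uneven in both lines but 10.5 points lower in PWK-Xi. The total hardly moved (181.2 and 177.5 FPKM), while the B6 allele was lower and the PWK allele 1.76 times as high in PWK-Xi. A B6 share of at least 75% in both lines was found for 1.49% of the 3827 genes. This limit was chosen with the shares of Pkm known, so nothing is read from that percentage. Around Pkm on chromosome 9, the 20 nearest genes had medians of 57.2% and 51.3%, and 0 of the 20 reached the share of Pkm in either line. Pkm lay 29.6 and 24.9 points above those medians. Its flanking genes Hexa and Rplp1 had 69.2% and 58.2% in the first line and 61.0% and 59.3% in the second. The Pkm gene makes the PKM1 and PKM2 enzymes by a choice between alternative exons, and values per gene do not separate them.

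Eno1 was nearly all PWK. Its B6 allele was listed at 0 in B6-Xi, beside 184.8 FPKM from PWK, and in PWK-Xi it had 8.08 FPKM beside 161.5 FPKM. The B6 shares were 0% and 4.76%. The PWK allele was 20 times the B6 allele in PWK-Xi. A B6 share of at most 10% in both lines was found for 0.47% of the 3827 genes, a limit likewise chosen with the shares of Eno1 known. On chromosome 4 around Eno1 the 20 nearest genes had medians of 46.2% and 53.1%, and all 20 lay above Eno1 in both lines, with lowest values of 26.1% and 31.6%. The flanking genes Lzic and Rere had 50% and 46.7% in the first line and 38.9% and 60.1% in the second. Eno1 stood 46.2 points under its neighbours in B6-Xi and 48.3 points under them in PWK-Xi. Beside their neighbours, as beside 50%, the 3 members set apart at 10 points in both lines were Tpi1, Pkm and Eno1. Of all 3827 genes 11.8% were set apart in this way (6.3% above and 5.46% under). The neighbours' medians for these 3 members lay within 10 points of 50%. The comparison thus largely repeats the shares with which the members were picked, and nothing is read from it.

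**Figure D4:**
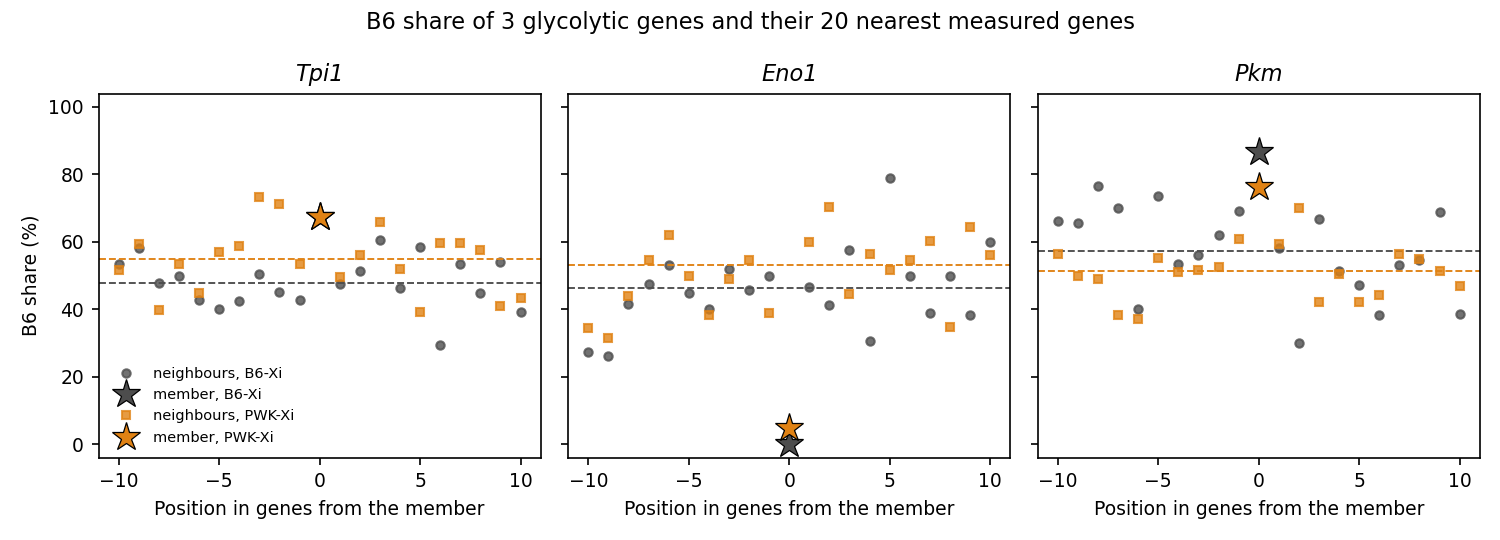
Stars give the B6 share (percent) of Tpi1, Eno1 and Pkm and small points that of their 20 nearest measured genes in chromosome order, with position counted in genes on the x axis; B6-Xi is dark, PWK-Xi is orange, and dashed lines are the neighbours' medians. The 2 stars of Tpi1 overlap, the stars of Eno1 lie under all neighbours, and the stars of Pkm lie above all neighbours of the same line.

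Values of genes with near-identical copies are uncertain, since reads may be split between them, and Eno1 is one. Its coding sequence of 1302 bases has 3 annotated copies in the GRCm38 transcripts of GENCODE that match it over its full length at 95% identity or more. They are the pseudogene Gm4735 on chromosome 2 (99.6% identity, 5 differing bases), the protein-coding retrogene Eno1b on chromosome 18 (99.4%, 8 differing bases) and the pseudogene Gm5855 on chromosome 3 (96.3%, 47 differing bases). Short reads of Eno1 and such copies are hard to separate, and the copies themselves were not analysed here. Whether reads of copies contributed to the low B6 share was not tested.

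Gapdh is the member with by far the most copies. Its coding sequence matched 79 other annotated genes at 95% identity or more over at least 200 bases, 75 of them pseudogenes, and 65 of the 79 covered at least 90% of it. Its level of 48.2 FPKM in PWK-Xi was under that of Tpi1 or Pgam1, and its share of 33.3% there equalled 1 part in 3 within 0.001 points. Shares in such simple ratios, with a denominator up to 10, made up 28.4% and 4.15% of the 3827 genes. The 0% of Eno1 in B6-Xi counts among them, and its alleles in PWK-Xi stood at 20 to 1, a share of 4.76% that lies outside this limit on the denominator. How many informative reads lie behind these shares is unknown. Simple ratios were more frequent in B6-Xi, which also had fewer genes above 0. Whether shares in B6-Xi rest on fewer reads was not tested. Like Gapdh, 4.76% of the 5065 genes that reached 5 FPKM in PWK-Xi stood at 0 in the other line. Neither the level nor the share of Gapdh is taken as a measure of its expression here. Its neighbours on chromosome 6 had medians of 49.0% and 56.6%, with Nop2 at 53.5% and 59.6% and Mrpl51 at 44.8% and 57.6%. The 0 of Aldoa in both lines is likewise not taken as absence of its expression. Of the genes beside Aldoa on chromosome 7, Cd2bp2 had 50% and 66.8%, and Plk1, at 14.9 and 10.9 FPKM, had 0% in both lines.

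The other members had few such copies. Pgam1 had 1, the pseudogene Pgam1-ps2 on chromosome 7, identical over all 762 coding bases, so its values are uncertain in the same way. Ldha had 2, at 95.9% and 95.6% identity. Gpi1 had 1, which matched 62.3% of its coding sequence at 98.7%. Tpi1 had 1, Tpi-rs11, which matched 34.4% of its coding sequence at 97.7% and lies on chromosome 6 like Tpi1 itself. Hk2, Pfkl, Pkm and Aldoa had 0 at this identity. The counts depend on the identity asked for: at 90%, a limit added after the data were seen, Pkm had 5 copies, Aldoa 7, Eno1 7, Ldha 13, Pgam1 3, Tpi1 2, Gpi1 1 and Gapdh 179, and only Hk2 and Pfkl had 0. At 95% identity, among 3661 autosomal genes with a coding sequence, the same uneven share was found for 14.8% of 3126 genes with no copy, for 19.4% of 535 genes with at least 1 and for 37.9% of 29 genes with at least 10. These shares are descriptive and were not tested.

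The shares of Gpi1, Pgam1 and Pfkl differed between the lines by 20.3, 17.9 and 17.1 points, more than those of 73.6%, 68.5% and 66.7% of the 3827 genes, and that of Ldha by 8.14 points, more than 38.4%. Pgam1 and Ldha reached 100 FPKM in both lines. The 287 genes at that level had a median gap of 7.73 points, and both Pgam1 and Ldha lay above it. Gpi1 crossed 50%: its B6 and PWK alleles had 22.7 and 27.5 FPKM in B6-Xi, against 38.3 and 20.1 FPKM in PWK-Xi, so the B6 share went from 45.3% to 65.5%. Its flanking genes on chromosome 7, Pdcd2l and Lsm14a, had 71.4% and 46.7% in the first line and 53.4% and 52.3% in the second. Shares on opposite sides of 50% were found for 39.2% of the 3827 genes. Pgam1 had 32.6 and 88.5 FPKM in B6-Xi, against 50.6 and 62.4 FPKM in PWK-Xi, so PWK was the higher allele in each, and the B6 shares were 26.9% and 44.8%. Its total was close in both lines while the alleles moved in opposite directions. In B6-Xi the share of Pgam1 lay under those of all 20 neighbours, whose median was 50.4%, and in PWK-Xi 3 of the 20 were as low or lower. Tm9sf3 and Exosc1, its flanking genes on chromosome 19, had 61.4% and 46.6% in the first line and 54.6% and 51.7% in the second.

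Pfkl had 3.30 and 2.52 FPKM from B6 and PWK in B6-Xi, against 6.00 and 2.13 FPKM in PWK-Xi, with B6 shares of 56.7% and 73.8%. Its neighbours on chromosome 10 leaned to B6 in B6-Xi, at a median of 66.5%, so Pfkl differed from them by -9.80 points there and by 17.1 points in PWK-Xi (median 56.7%). Its flanking genes were 1810043G02Rik (40.4% and 46.7%) and Rrp1 (70.8% and 60%). Hk2 had 1.19 and 0.664 FPKM in B6-Xi, against 2.91 and 0.854 FPKM in PWK-Xi. Its neighbours on chromosome 6 had medians of 51.7% and 50.9%, and 2 and 1 of the 20 reached its share; the flanking genes were Pole4 (52.0% and 54.2%) and Loxl3 (30% and 70%). Of the 7 members with enough signal, Ldha alone stayed within 10 points of 50% in both lines. Its alleles had 222.9 and 229.5 FPKM in B6-Xi, against 139.4 and 199.5 FPKM in PWK-Xi, with B6 shares of 49.3% and 41.1%, which differed from the medians of its neighbours on chromosome 7 by -5.97 and -4.92 points. Its flanking genes were Emp3 (53% and 54.7%) and Tsg101 (58.1% and 48.9%).

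By allele, the B6 share was higher in PWK-Xi for 6 of the 8 members with a share in both lines and lower for 2, Pkm and Ldha. The B6 allele was higher in PWK-Xi for 6 of the 8, and the PWK allele for 3 (Hk2, Tpi1 and Pkm). The median B6 share of the 3827 autosomal genes also moved that way, from 50% in B6-Xi to 52.4% in PWK-Xi. Pooled over all members the share assigned to B6 was 46.9% and 46.8%, and pooled over all genes it was 49.3% and 53.9%.

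Hypoxia response elements, the sites that HIF-1 binds, have the core ACGTG or GCGTG, and these letters were searched on both strands of the 300 bases around each RefSeq start site (250 before and 50 after it, build GRCm38.p6). All 10 members had a window, 16 in all. ACGTG was in 7 of the 16 windows, against 19.6% of all 32851 windows, GCGTG in 8 (32.4%) and either in 12 (43.8%). Windows of 1 gene can overlap, as those of Eno1 and of Aldoa do, so the same letters count more than once among the 16. A CACGTG box counts as ACGTG, since it holds those letters on both strands. Windows of the 3 genes with the same uneven share are shown as regions around annotated start sites. Which start site each allele uses is unknown, since values are per gene. Capitals mark either core on either strand. The windows are the reference sequence, and the PWK sequence was not analysed here. The Tpi1 window is chr6:124814109-124814408 on the minus strand and has neither core. The Eno1 window is chr4:150236947-150237246 on the plus strand, 1 of 3 for this gene, each with GCGTG at 2 places. The Pkm window is chr9:59656977-59657276 on the plus strand, and the other Pkm window, at an earlier start site, has neither core. The windows shown for Eno1 and Pkm were chosen after the matches were seen.
Tpi1: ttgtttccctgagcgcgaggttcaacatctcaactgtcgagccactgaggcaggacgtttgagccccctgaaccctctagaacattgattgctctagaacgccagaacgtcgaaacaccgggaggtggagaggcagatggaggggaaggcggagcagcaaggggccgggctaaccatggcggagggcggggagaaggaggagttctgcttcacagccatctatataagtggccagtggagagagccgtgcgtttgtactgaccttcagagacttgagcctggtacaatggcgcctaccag
Eno1: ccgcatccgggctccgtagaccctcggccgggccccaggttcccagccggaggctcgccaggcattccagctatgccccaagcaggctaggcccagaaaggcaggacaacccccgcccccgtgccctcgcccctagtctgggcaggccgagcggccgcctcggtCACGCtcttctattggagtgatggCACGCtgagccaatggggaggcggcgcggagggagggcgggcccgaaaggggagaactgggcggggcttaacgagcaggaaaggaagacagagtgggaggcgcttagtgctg
Pkm: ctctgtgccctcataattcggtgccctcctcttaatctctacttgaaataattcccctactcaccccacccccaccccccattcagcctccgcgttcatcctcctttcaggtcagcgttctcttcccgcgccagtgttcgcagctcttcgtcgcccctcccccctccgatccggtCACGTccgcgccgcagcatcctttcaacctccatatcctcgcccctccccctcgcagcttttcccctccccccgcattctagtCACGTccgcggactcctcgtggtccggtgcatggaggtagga
The Eno1 window holds GCGTG at 2 places and the Pkm window ACGTG at 2. A match describes the letters only.

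The same values were read for the other glycolytic genes of a textbook list. Of 21 listed, 10 were at 0 in both lines, among them the testis forms Pgk2, Gapdhs and Ldhc. Pgk1, the phosphoglycerate kinase gene between the Gapdh and Pgam1 steps, lies on the X chromosome. Its 55.7 FPKM in B6-Xi were entirely PWK and its 92.8 FPKM in the other line entirely B6, so its share followed the active X and not the strain. Of 4 autosomal genes at 5 FPKM or more in each line 2 had the same uneven share. Ldhb, the heart-type lactate dehydrogenase subunit on chromosome 6, had 42.8 and 85.04 FPKM with B6 shares of 61.6% and 83.8%. Its B6 allele had 26.4 and 71.3 FPKM, and its PWK allele 16.4 and 13.8 FPKM. Eno3, the muscle enolase, leaned to PWK like Eno1, with B6 shares of 35.7% and 18.8%, and went from 43.2 to 8.42 FPKM, 5.14-fold lower in PWK-Xi. It was the 1 of 8 such genes past 2-fold, where 5.95% of all 5241 genes were 2-fold lower and 14.1% 2-fold higher. Eno2, the neuronal enolase, had B6 shares of 87.5% and 59.9% at 2.65 and 6.01 FPKM.

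The remaining isozymes were low. Hk1, the most widely expressed hexokinase, had 6.61 and 4.83 FPKM, more than Hk2 in each line, and B6 shares of 61.9% and 46.7%. Pfkp, the platelet phosphofructokinase, had 5.403 and 3.02 FPKM (54.2% and 61.1% from B6). It was close to Pfkl (5.82 and 8.13 FPKM) in B6-Xi and well under it in PWK-Xi. Bpgm, which makes 2,3-bisphosphoglycerate, had 13.4 and 10.2 FPKM with B6 shares of 63.1% and 58.1%. Pgam5, a mitochondrial phosphatase named after the mutase family, had 8.73 and 15.6 FPKM with 22.6% and 46.9%. Pfkm, Aldoc and Pgam2, listed at 0 in the first line, had 1.94, 2.42 and 1.69 FPKM in the second.

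Genes around the pathway were read by the same rules. Of 2 measured glucose and lactate transport genes 1 was uneven: Bsg, the chaperone of lactate transporters, had 124.3 and 164.5 FPKM with B6 shares of 68.1% and 71.4%. The glucose transporter gene Slc2a1 had 9.43 and 13.6 FPKM with 66.7% and 55%, and the lactate transporter gene Slc16a1 2.50 and 5.92 FPKM with 52.9% and 50.4%. Of 10 genes of pyruvate use 1 was uneven, the mitochondrial aspartate aminotransferase gene Got2, at 32.6 and 31.1 FPKM with 69.0% and 71.9%. Mdh2, the mitochondrial malate dehydrogenase, had 171.1 and 288.2 FPKM with 50.3% and 35.1%. Its cytosolic counterpart Mdh1 had 69.2 and 59.8 FPKM with 38.5% and 56.3%, and the citrate synthase gene Cs 61.4 and 44.8 FPKM with 57.4% and 56.4%. None of the 3 pentose phosphate, 4 gluconeogenesis and glycogen, 4 serine, glycerol and hexosamine and 7 HIF-axis genes measured was uneven, and none of the PFKFB and Tigar genes reached 5 FPKM in both lines. Over these lists together 4 of 34 genes were uneven, or 11.8%, beside 15.8% of all genes. Of these 4, Got2 had 2 annotated copies at 95% identity or more and Ldhb 1, while Bsg and Eno3 had 0. Copies were also found for Phgdh (8), Bnip3 (4), Pgk1 (4) and Mpc1 (2), among others. Values of genes with such copies are uncertain here as for the members.

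Total levels of these lists were compared between the lines as for the members. Over all 5241 genes measured in this way 14.1% were at least 2-fold higher in PWK-Xi and 5.95% lower, the background for each count here. Of 10 HIF-axis genes 5 were higher and 0 lower, and their median log2 difference was 0.65 relative to all genes. This count depends on the minimum, which Ddit4 reached only in PWK-Xi. Under it in both lines lay Ndrg1 (4.39 and 1.35 FPKM), past 2-fold lower, and Kdm3a (1.49 and 3.99 FPKM), past 2-fold higher. Hif1a, the oxygen-regulated HIF-1 subunit gene on chromosome 12, had 17.7 FPKM in the first line and 84.4 FPKM in the second. Its B6 shares were 0% and 59.0%, so part of its change follows from a B6 allele listed at 0. Its PWK allele had 17.7 and 34.6 FPKM. Adm, the adrenomedullin gene, had 10.9 and 37.2 FPKM and was past 2-fold like Hif1a. The mitophagy receptor gene Bnip3l, with 16.2 and 25.0 FPKM, was not. The other 3 past 2-fold, named after their values were seen, were Ddit4 (0.645 and 10.2 FPKM), P4ha1 (7.32 and 18.3 FPKM) and Bnip3 (6.33 and 14.7 FPKM), whose log2 difference was 0.90 relative to all genes and so short of 2-fold on that scale. Pentose phosphate genes had a median of -0.61 over 7 genes, with 0 past 2-fold either way. Taldo1 had 66.4 and 61.1 FPKM, Pgd 65.3 and 32.3 FPKM, and the X-linked G6pdx 35.5 and 19.97 FPKM. Relative to all genes Pgd had a log2 difference of -1.19, past 2-fold on that scale. Of 13 genes of pyruvate use 1 was 2-fold higher (Dld, 8.38 and 22.5 FPKM) and 0 lower, with a median of -0.15. The B6 allele of Dld was listed at 0 in B6-Xi and at 12.2 FPKM in PWK-Xi. Its PWK allele had 8.38 and 10.3 FPKM, so the change in total came mostly from that listed 0. Of 6 serine, glycerol and hexosamine genes 2 were higher (Psph and Mpi) and 0 lower, with a median of 0.51. Mpi reached 5 FPKM only in PWK-Xi. Psat1 had 43.2 and 36.5 FPKM and Phgdh 27.9 and 48.4 FPKM. Of the 3 transport genes and the 5 gluconeogenesis and glycogen genes 0 passed 2-fold, with medians of 0.29 and -0.37. Gyg had 24.4 and 22.3 FPKM, G6pc3 19.5 and 11.9 FPKM, and Pgm2 11.6 and 9.36 FPKM. The PFKFB and Tigar genes stayed under 2 FPKM, led by Pfkfb4 (1.91 and 0.80 FPKM), Pfkfb2 (0.882 and 1.60 FPKM) and Tigar, listed as 9630033F20Rik (0.885 and 1.39 FPKM).

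Genes with a like pair of shares were sought among the 287 abundant autosomal genes, by the distance between the pairs in percentage points. For Tpi1 the nearest were Stmn1 (65.3% and 68.5%, distance 2.40), Igfbp7 (66.1% and 69.9%, distance 2.86) and Rpl17 (69.8% and 65.2%, distance 3.23). For Pkm they were Sepw1 (83.4% and 74.7%, distance 3.66), Atp5e (75.7% and 73.9%, distance 11.3) and Rps19 (72.7% and 71.0%, distance 14.95). Eno1 had no close match: the nearest, Sumo2 (8.45% and 20.8%), was 18.1 points away, followed by Atp5g2 (27.9 points) and Rpl28 (28.5 points). Each pair is 2 values, so likeness here describes these libraries only.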

How the data were processed

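Polyadenylated RNA of 2 hybrid fibroblast lines was sequenced after Smart-seq2 preparation, 1 library per line, with groups taken from the sample titles. Per the file headers, the authors deposited FPKM values of each gene in a column for the B6 allele and one for the PWK allele. Per the submitters' processing notes, the build was mm9 and the tools were StringTie 2.1.1, HISAT2 2.2.0 and Trim Galore 0.6.4. How reads were assigned to an allele, and how reads with no strain difference or several matches entered FPKM, is a step not given in the sources used here. FPKM are not counts, so depth is unknown and no interval was computed.

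Alleles were summed per gene. Shares needed 5 FPKM in both lines for counts. Differences were log2((PWK-Xi + 1)/(B6-Xi + 1)) for genes with 5 FPKM in either line, and the pseudocount understates changes of low genes. Chromosomes and gene order came from GENCODE M21 or RefSeq names of GRCm38, a later build than mm9 (21631 symbols matched by GENCODE name, 195 by RefSeq symbol, 789 by synonym and 96 not); no mm9 coordinates were used. Copies were found with BLAST 2.17.0 (at least 95% identity over 200 bases) from the longest coding sequence of each gene. Calculations used pandas 2.3.3 and numpy 2.4.6 under Python 3.11.15, and plots matplotlib 3.10.9, and the counting functions were tested on simulated data.

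The members, lists, thresholds and the naming rule were chosen with earlier results of these data known. Named were all members, other glycolytic genes with at least 1 FPKM, genes with the same uneven share, the 3 most abundant genes of each list, the flanking genes of each member and the 3 genes with the nearest pair of shares. Alternatives covered the distance from balance, its reference, the pseudocount, minimum levels, scaling, single alleles and the number of neighbours. Eno1b and Aldoart2 were not analysed here as expressed genes, and some listed genes are not reported here by name.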

Additional observations from a re-analysis of the deposited data

Results flagged for a closer look

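Gpi1 had its higher allele on opposite strains in the 2 lines, with B6 shares of 45.3% in B6-Xi and 65.5% in PWK-Xi. Pgk1, X-linked, did so completely, with 0% in B6-Xi and 100% in PWK-Xi. With 1 library per line neither difference was tested. No group had the 4 samples needed to look for a sample far from the others.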

How the results depend on the processing

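Tpi1, Pkm and Eno1 kept the same uneven share when a share had to lie 15 points from 50%, when the autosomal median of each line replaced 50%, and when 1 FPKM was added to each allele; a minimum of 1 FPKM added Hk2, for 4 members. At 5 points the count was 5, with Pgam1 and Pfkl. Beside their neighbours, Pkm and Eno1 stood apart under all 5 alternatives; Tpi1 did so with 10 or 40 neighbours and at 5 points, but not at 15 points or with neighbours from 1 FPKM, which left 2 members. Among the other lists the 4 uneven genes became 9 at 5 points, 2 at 15 points and 7 with a minimum of 1 FPKM. The members' median log2 difference of 0.09 changed sign to -0.030 without a pseudocount, where Gapdh drops out, to -0.10 relative to all genes and to -0.18 for the PWK allele alone. It was 0.66 for the B6 allele alone, 0.25 when both lines were scaled to the same total and 0.21 without a minimum. The direction of the members as a group is therefore not given. The 1 member past 2-fold, Gapdh, is set by its 0 in B6-Xi: the count was 0 without a pseudocount and 2 for the B6 allele alone, where Eno1, at 0 for that allele in B6-Xi, joins it. Members with no near-identical copy numbered 4 at 95% identity and 2 at 90%, a limit added after the data were seen. No paired analysis was possible because each line has 1 library. With no counts, small shares such as the 4.76% of Eno1 have no interval, and 1 library per line gives no spread.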

Other observations

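Psph, which makes the last step from the glycolytic intermediate 3-phosphoglycerate to serine, had the largest ratio of PWK-Xi to B6-Xi, 6.77, among the genes of these lists that reached 5 FPKM in each line. Its levels were 8.10 and 54.9 FPKM, the B6-Xi value first here and below. The PWK allele was close in both lines, at 3.71 and 4.95 FPKM, while the B6 allele went from 4.39 to 49.9 FPKM, so that the B6 share went from 54.2% to 91.0%. Mpi, a mannose phosphate isomerase gene, had 1.97 and 9.26 FPKM with B6 shares of 60% and 32.6%. Mpc1, a subunit of the mitochondrial pyruvate carrier, was listed at 0 in the first line and at 17.5 FPKM in the second, where its B6 share was 88.9%. Its partner Mpc2 had 40.6 and 31.0 FPKM with B6 shares of 36.8% and 70.7%. No explanation of these values was tested.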
